A study of Mus musculus with 6 samples.

Results

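The genes described here are 9 hepatic genes of gluconeogenesis, glycogen turnover and glucose sensing, namely Pck1, G6pc, Fbp1, Pcx, Gckr, Pklr, Slc2a2, Pygl and Gys2. They were chosen by symbol, and all 9 of them were found among the 17975 genes of the table and passed the filter on low counts that left 13805 genes for testing. RNA was sequenced from whole liver of 3 WT mice and 3 Hom mice, 1 liver per library. The Hom mice were homozygous for a floxed Nek7 allele and carried Alb-Cre (NEK7 fl/fl-Alb-Cre+), which deletes the gene where the albumin promoter is active, in hepatocytes. The controls were given in the labels as WT, with no statement on whether they carried floxed alleles or Cre. Mice of the study had free access to food and water, and no age, sex, feeding state or hour of collection was given in the labels for these 6 livers. Because whole liver was sequenced, the cells in which Cre is not active kept Nek7, and in such bulk tissue fewer cells of a type and less RNA per cell cannot be told apart.

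The liver makes glucose from lactate, amino acids and glycerol when food is absent, and stores it as glycogen after a meal. Pyruvate carboxylase and phosphoenolpyruvate carboxykinase carry carbon from pyruvate back towards sugar, fructose-1,6-bisphosphatase and glucose-6-phosphatase complete the route, and glucagon and insulin set Pck1 and G6pc transcription in opposite directions. Glucose enters and leaves hepatocytes through GLUT2, and ChREBP, a transcription factor that responds to sugar, ties liver pyruvate kinase to the glucose level.

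Promoter sequences are shown for Pck1 and G6pc, the members of this set whose transcription is most closely tied to feeding and the 2 with the largest fold changes. RefSeq promoters on GRCm38.p6, covering 250 bases before and 50 bases after the annotated start, were matched for 8 of the 9 genes, which gave 10 promoters. The deposited table holds no coordinates, and the submitters' processing notes name the build mm9, so no position below comes from that table. The Pck1 promoter lies on the plus strand at chr2:173152823-173153122 and the G6pc promoter on the plus strand at chr11:101367466-101367765. Capitals mark the match to TTACGTCA, the form of the cAMP response element searched for Pck1, through which glucagon signalling is known to act on this gene.
Pck1: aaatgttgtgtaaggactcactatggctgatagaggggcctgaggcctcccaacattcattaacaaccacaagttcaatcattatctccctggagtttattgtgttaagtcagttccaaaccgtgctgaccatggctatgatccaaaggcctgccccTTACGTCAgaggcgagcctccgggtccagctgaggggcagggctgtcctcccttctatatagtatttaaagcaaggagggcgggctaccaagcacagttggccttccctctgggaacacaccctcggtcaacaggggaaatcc
G6pc: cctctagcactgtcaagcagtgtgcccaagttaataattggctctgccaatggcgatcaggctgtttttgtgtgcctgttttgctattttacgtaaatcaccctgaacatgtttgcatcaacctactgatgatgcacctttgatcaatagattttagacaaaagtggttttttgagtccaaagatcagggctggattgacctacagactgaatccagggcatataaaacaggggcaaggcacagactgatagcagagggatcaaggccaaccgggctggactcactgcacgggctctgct
Both strands were searched for 5 motifs, and the windows of the other genes were searched in the same way. Only exact letters were matched, so a sequence without a mark, such as that of G6pc, may still hold variants of these motifs. TTACGTCA was found from base -93 to base -86 of Pck1, counted from the start site, and in 0.499% of 32851 promoters. The letters of the E box CACGTG were found in 1 of 2 Pcx promoters, from base -248 to base -243, and in 7.15% of all promoters. The full cAMP response element TGACGTCA, the forkhead motif GTAAACA and the HNF4 motif TGGACTTTG were in 1.79%, 3.65% and 0.475% of all promoters and in none of the 10 promoters. Of the 8 genes 6 held no exact match to any of the 5 motifs.

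Total counts ran from 19349418 to 19730236 per library, and the differences between groups below depend on how these libraries were scaled. Nek7 itself, the targeted gene, stood at 62.9, 69.1 and 63.7 CPM (counts scaled to the size of the library) in the WT livers and at 14.5, 18.1 and 16.7 CPM in the Hom livers. That was a log2 fold change of -1.99 (SE 0.10, Benjamini-Hochberg adjusted p = 0.000159 in edgeR's quasi-likelihood test), with each Hom liver under every WT liver. CPM here is scaled by TMM, which centres the bulk of the genes and gave scaling factors of 0.806 to 0.924 in WT and 1.09 to 1.23 in Hom libraries. Scaling by library size alone moved the median log2 fold change of all tested genes from -0.0018 to 0.45, upper-quartile factors moved it to 0.089, and scaling on 39 hepatocyte markers moved it to 0.53. The 10 genes with the most counts in WT livers took 18.8% to 20.6% of the WT counts and 11.7% to 13.6% of the Hom counts. Hom 1 had 0 counts of the Y-linked genes Ddx3y and Kdm5d, while the other 5 livers had 630 to 1125 counts of Ddx3y, and its part in the results was not tested beyond the values without it. The replicates within a group differed by more than counting noise, and no library appeared to be a copy of another.

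Of the 9 glucose genes, 5 fell in the Hom mice (G6pc, Pck1, Pygl, Gys2 and Slc2a2), none rose, and 4 did not pass the test (Fbp1, Pcx, Gckr and Pklr). Their median log2 fold change was -0.61, beside -0.0018 over all tested genes, of which 20.1% were called lower and 21.5% higher. Upper-quartile factors left 4 lower, beside 14.9% of all genes, and 0 higher, beside 25.2%. Under library size alone and under hepatocyte markers 1 of the 9 was lower, G6pc, beside 4.65% and 3.34% of all genes, and 0 were higher, beside 47.6% and 50.2%. The median was then -0.12 and -0.031. After TMM scaling all Hom livers were under all WT livers for 7 of the 9 (27.0% of all genes, with 28.7% the other way). In unscaled counts they were under all WT livers for 2, G6pc and Pygl (6.14% of all genes), and over all WT livers for another 2, Pcx and Gckr (57.2% of all genes). At an unadjusted p under 0.05, 7 of the 9 were lower and 0 higher, and DESeq2 called 6 lower and 0 higher. Shares of all genes in these 2 settings are not given, here or for the lists below. Summed over the 9 genes, the share of all counts in a library ran from 0.496% to 0.622% in WT and from 0.351% to 0.462% in Hom mice. This share is scaled by library size alone, and Pck1 was its largest part in every liver.

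**Figure D1:**
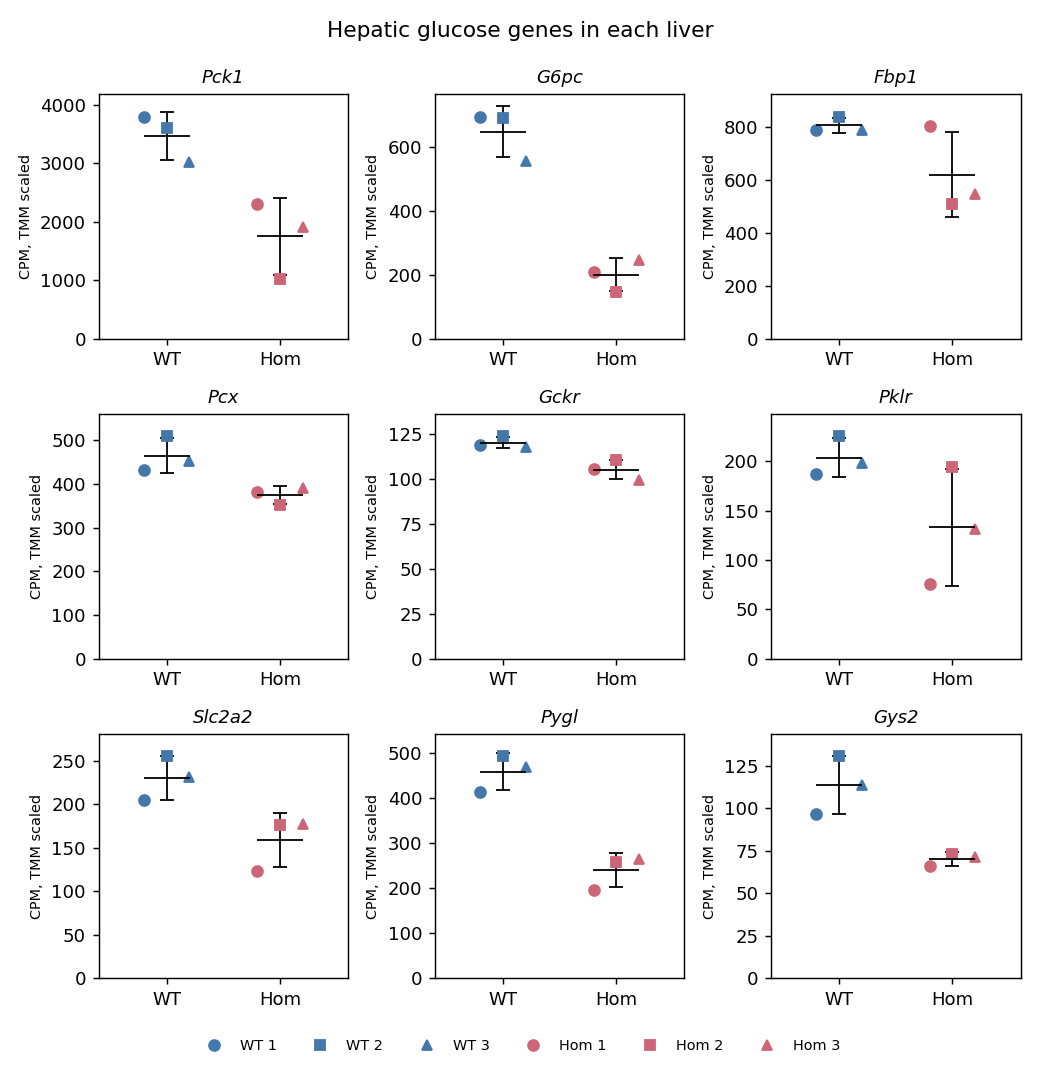
Level of each of the 9 genes in each liver, in CPM scaled by TMM (y axis, from 0), for 3 WT and 3 Hom livers; symbols mark the livers and bars the mean ± SD. The groups do not overlap for 7 of the genes, while Fbp1 and Pklr each have a Hom liver at WT level.

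The gluconeogenic enzymes differed among themselves. Pck1 (NCBI gene 18534), the cytosolic phosphoenolpyruvate carboxykinase and the most abundant transcript of the set, stood at 3799.8, 3607 and 3013 CPM in WT livers and at 2298, 1028 and 1917 CPM in Hom livers. All Hom livers were under all WT livers, and Hom 2 was lowest. Pck1 fell by 0.99 on the log2 scale (SE 0.30, adjusted p = 0.0356, edgeR's quasi-likelihood test), from 3473 ± 409.9 to 1748 ± 652 CPM (SD, n = 3). This call was lost under library size alone (-0.56, adjusted p = 0.121) and hepatocyte markers (-0.49, adjusted p = 0.117). It was also lost without WT 1, WT 2, WT 3 or Hom 3, where the adjusted p was 0.0563 to 0.0938.

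G6pc (NCBI gene 14377), the catalytic subunit of glucose-6-phosphatase that releases free glucose, gave the largest difference of the 9. Its level was 695, 692 and 555 CPM in WT livers and 208, 145 and 246 CPM in Hom livers. The highest Hom liver was thus well under the lowest WT liver. G6pc fell by 1.70 on the log2 scale (SE 0.21, adjusted p = 0.00156, edgeR's quasi-likelihood test), leaving 30.9% of the WT mean. It was the one member called under all 4 scalings, with -1.60 for upper-quartile factors, -1.25 for library size alone (adjusted p = 0.00324) and -1.17 for hepatocyte markers (adjusted p = 0.00198). Unscaled counts gave the same order, at 12443, 10782 and 9040 in WT livers against 4467, 3514 and 5714 in Hom livers. With a further minimum of 1 on the size of the log2 fold change, G6pc alone of the 9 was called lower, beside 4.17% of all genes.

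Fbp1 (NCBI gene 14121), the liver fructose-1,6-bisphosphatase, did not pass the test. It stood at 791, 840.1 and 790.1 CPM in WT livers and at 804, 510.1 and 548 CPM in Hom livers, so that Hom 1 was at WT level while Hom 2 and Hom 3 were under all WT livers. The log2 fold change was -0.38 (95% interval -0.83 to 0.071, adjusted p = 0.150). Without Hom 1 it was -0.61 with an adjusted p of 0.00991, whereas library size alone and hepatocyte markers gave 0.062 and 0.13.

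Pcx (NCBI gene 18563), the mitochondrial enzyme that carboxylates pyruvate, also missed the threshold. Its level was 432, 509 and 451 CPM in WT livers and 380.2, 351 and 391 CPM in Hom livers, with no overlap after TMM scaling. Its unscaled counts ran the other way, at 7741, 7933 and 7347 in WT livers and 8147, 8519 and 9078 in Hom livers. The log2 fold change was -0.31 (SE 0.11, adjusted p = 0.0616) under TMM and turned to 0.15 and 0.22 under library size alone and hepatocyte markers. DESeq2 called it lower (adjusted p = 0.0106), as did edgeR with a correction for gene length (adjusted p = 0.0371).

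Slc2a2 (NCBI gene 20526) encodes GLUT2, the glucose transporter of the hepatocyte membrane. It stood at 205, 255 and 231 CPM in WT livers and at 123, 177 and 178 CPM in Hom livers, with Hom 1 lowest. The log2 fold change was -0.53 (SE 0.17, adjusted p = 0.0389). This call was among the least stable. It was lost under upper-quartile factors (adjusted p = 0.0715), with at least 10 counts in every liver (adjusted p = 0.0507), and without WT 2, WT 3, Hom 2 or Hom 3. Library size alone gave -0.06 and hepatocyte markers 0.018.

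Both glycogen genes fell under TMM scaling. Pygl (NCBI gene 110095), the liver glycogen phosphorylase that releases glucose units from glycogen, stood at 413, 493 and 469.5 CPM in WT livers and at 197, 257 and 266 CPM in Hom livers. Its unscaled counts did not overlap either, at 7394 to 7688 in WT and 4224 to 6239 in Hom livers, and Hom 1 was lowest. Pygl fell by 0.93 on the log2 scale (SE 0.15, adjusted p = 0.00346), and held its call whichever liver was left out. It missed the threshold under library size alone (-0.46, adjusted p = 0.0519) and hepatocyte markers (-0.39, adjusted p = 0.160).

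Gys2 (NCBI gene 232493), the liver glycogen synthase that builds glycogen, stood at 96.9, 131 and 114 CPM in WT livers and at 65.9, 73.4 and 71.4 CPM in Hom livers. The 3 Hom livers lay close together and under all WT livers. Gys2 fell by 0.70 on the log2 scale (SE 0.12, adjusted p = 0.00480), also in every fit that left out 1 liver. Its unscaled counts overlapped, at 1736 to 2038 in WT and 1413 to 1780 in Hom livers, and the call was lost under library size alone (-0.23, adjusted p = 0.141) and hepatocyte markers (-0.16, adjusted p = 0.465).

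Of the 2 genes that couple sugar use to the glucose level, neither passed the test. Gckr (NCBI gene 231103), a regulatory protein of hepatic sugar use that responds to fructose phosphates, was the steadiest of the 9, with 119, 124 and 118 CPM in WT livers and 105, 110.4 and 99.5 CPM in Hom livers. The groups did not overlap, but the difference was small, with a log2 fold change of -0.19 (SE 0.077, adjusted p = 0.0858). It turned to 0.27 under library size alone and 0.34 under hepatocyte markers, and the unscaled counts were higher in all Hom livers (2255, 2678 and 2308) than in all WT livers (2125, 1926 and 1915).

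Pklr (NCBI gene 18770), the liver pyruvate kinase of glycolysis and a classic target of the glucose sensor ChREBP, varied most among the Hom mice. It stood at 187, 225 and 198 CPM in WT livers and at 75.2, 194 and 131 CPM in Hom livers. Hom 2 was at WT level and Hom 1 far under it, a range of 2.58-fold among the 3 Hom livers. The log2 fold change was -0.61 (95% interval -1.34 to 0.12, adjusted p = 0.153), and without Hom 2 it was -0.98 with an adjusted p of 0.0344. With each liver left out it ran from -0.98 to -0.33. In GENCODE M21, 23.4% of the exonic bases of Pklr are shared with Hcn3 on the opposite strand, and whether counting used strand was not given in the sources used here, so its values are uncertain. Hcn3 had 119 to 215 counts in WT and 19 to 132 in Hom mice, far fewer than the 3226 to 3514 and 1611 to 4701 counts of Pklr.

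**Figure D2:**
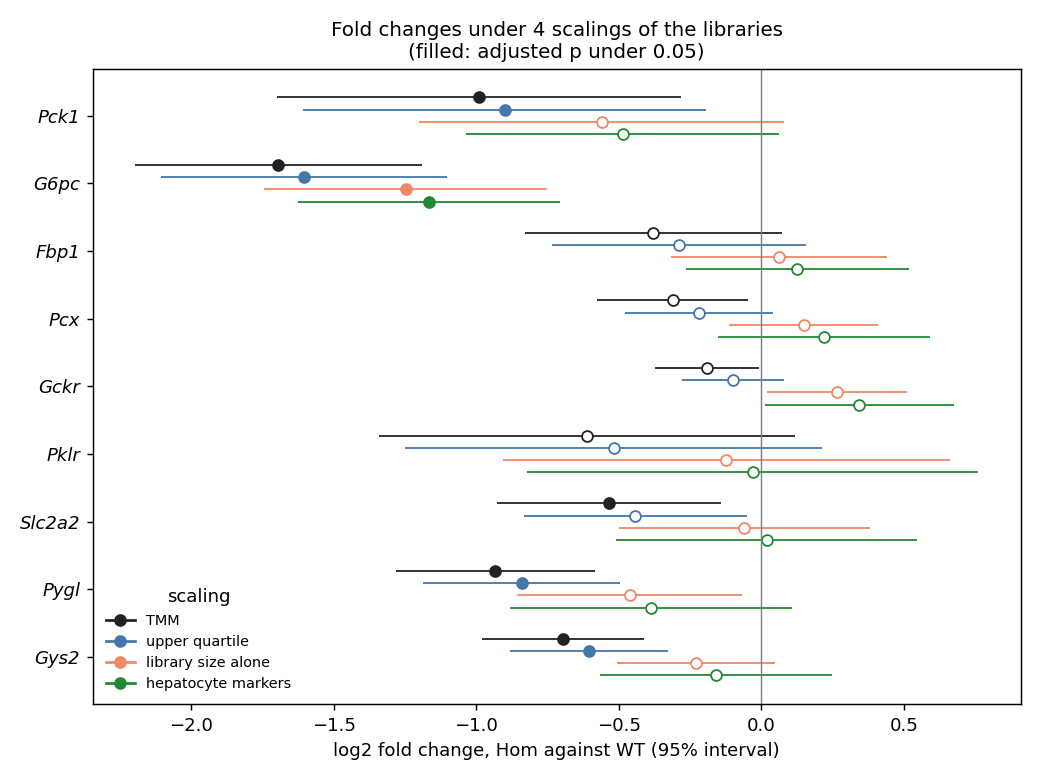
Log2 fold change of Hom against WT (x axis) with its 95% interval for each gene under 4 scalings of the libraries (colours); filled circles passed an adjusted p of 0.05. G6pc is filled under all 4 scalings, and the values of Fbp1, Pcx and Gckr change sign between TMM and library size alone.

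The spread among livers was part of the picture. The coefficient of variation of CPM was larger in Hom than in WT livers for 7 of the 9 genes, beside 39.6% of all tested genes. It reached 44.5% for Pklr and 37.3% for Pck1 in Hom livers, against 9.64% and 11.8% in WT livers. The livers did not rank alike across genes, since Hom 1 was lowest for 4 genes (Pklr, Slc2a2, Pygl and Gys2) and Hom 2 for another 4 (Pck1, G6pc, Fbp1 and Pcx). Hom 1 was at the same time the highest Hom liver for Pck1 and Fbp1.

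Levels per transcript length, as the deposited TPM values, ranked the genes within each group. In WT livers the order was Pck1 (1948 ± 415 TPM), Fbp1 (813 ± 80.1), G6pc (424 ± 86.4), Pygl (237 ± 6.96), Pcx (163 ± 12.1), Slc2a2 (131 ± 5.99), Pklr (101 ± 6.31), Gckr (78.9 ± 8.66) and Gys2 (63.1 ± 4.29) (SD, n = 3). No gene overlapped its neighbour in that order in the 3 WT livers. In Hom livers Pck1 (1474 ± 474 TPM) and Fbp1 (949.96 ± 171) still led, but they overlapped. Pcx (203 ± 13.7), G6pc (199.5 ± 49.7) and Pygl (193 ± 41.8) then formed a group whose neighbours overlapped, so that the place of G6pc above Pygl and Pcx was not kept. Overlap went on through Slc2a2 (141 ± 36.1), Pklr (106 ± 53.2) and Gckr (105 ± 9.93), and Gys2 (60.5 ± 7.69) was again last, apart from Gckr but overlapping the wide range of Pklr.

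Ratios between 2 genes of the same liver do not depend on how libraries are scaled, and 10 such TPM ratios were compared by exact two-sided permutation tests, in which 3 against 3 livers cannot give a p under 0.1. The first 6 set each liver form against the isozyme found in other tissues. Pygl over Pygb, the brain form of phosphorylase, was 73.2, 161 and 127 in WT livers and 4.99, 11.6 and 11.98 in Hom livers. The mean log2 ratio differed by -3.69 (exact p = 0.1, adjusted p = 0.125), and no Hom liver came near a WT liver. Pygb itself rose by 2.75 on the log2 scale (adjusted p = 0.00124, edgeR's quasi-likelihood test), from 5.64 to 38.2 CPM.

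Pck1 over Pck2, the mitochondrial carboxykinase, was 731, 1246 and 998 in WT livers and 259.9, 120.3 and 229 in Hom livers, a log2 difference of -2.33. G6pc over G6pc3, the widely expressed glucose-6-phosphatase, was 72.5, 60.2 and 52.7 in WT livers and 16.4, 9.14 and 16.3 in Hom livers, a log2 difference of -2.19. The groups lay apart in both. The log2 difference was -1.39 for Pklr over Pkm, the muscle-type pyruvate kinase, -1.16 for Gys2 over Gys1, the muscle glycogen synthase, and -1.09 for Slc2a2 over Slc2a1, which encodes GLUT1. All 6 isozyme ratios were lower in every Hom liver than in every WT liver (exact p = 0.1, adjusted p = 0.125 each). Fbp1 had no such ratio, since its muscle isozyme Fbp2 had at most 3 counts in a liver.

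The other 4 ratios set genes against an opposing or partner gene. Fbp1 over Pfkl, the liver phosphofructokinase, differed by -0.68 and Pygl over Gys2 by -0.25, both with groups apart (exact p = 0.1, adjusted p = 0.125). Pygl over Gys2 moved by little, lying between 3.51 and 3.98 in WT and between 2.79 and 3.47 in Hom mice.

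Pck1 over Pklr and Pcx over Pklr overlapped between groups, with log2 differences of -0.37 (exact p = 0.7) and 0.38 (exact p = 0.5). That of Pcx over Pklr ran from 0.0081 to 0.75 with each liver left out. The ratio of Pck1 to Pklr was 33.9 in Hom 1, 5.83 in Hom 2 and 16.2 in Hom 3, either side of the 16.9 to 22.9 of the WT livers, and the log2 difference was 0.30 without Hom 2 and -0.97 without Hom 1. Of the 10 ratios 8 did not overlap between groups, beside 55.8% of all pairs of tested genes, and none passed the threshold, which this number of livers does not allow.

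**Figure D3:**
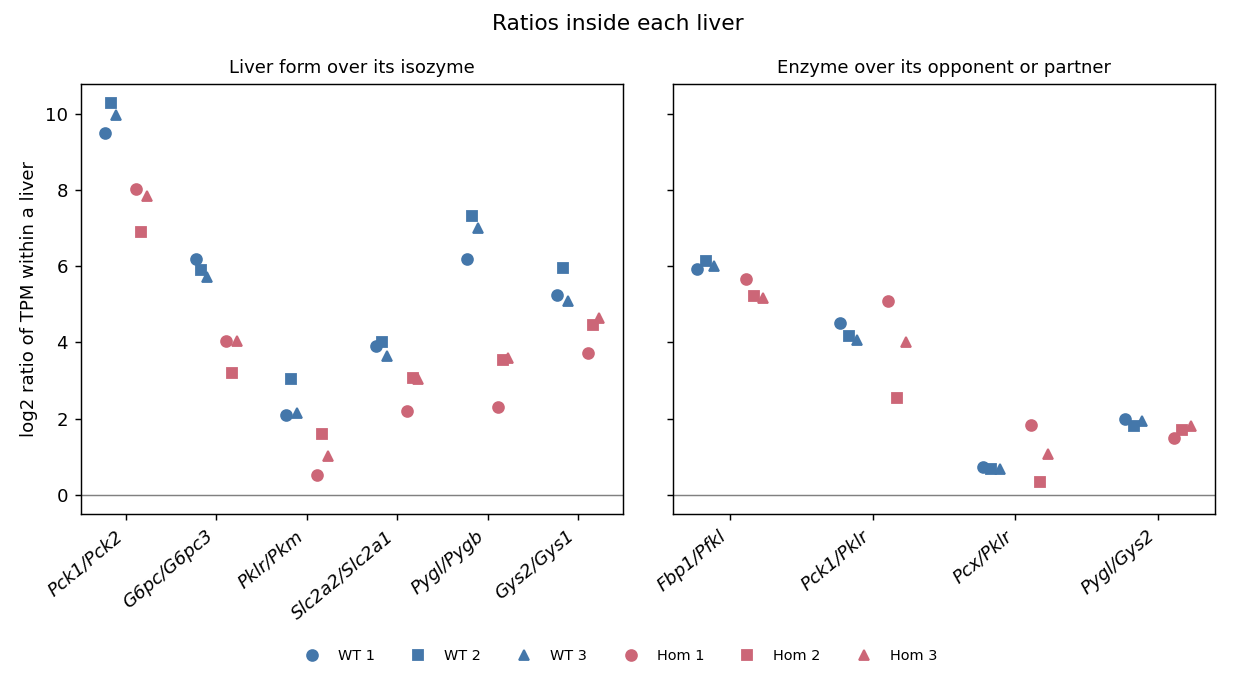
Log2 ratio of TPM of 2 genes within the same liver (y axis), for liver forms over their isozymes (left) and for enzymes over an opposing or partner gene (right), with 1 symbol per liver. WT and Hom livers lie apart in all 6 isozyme ratios and overlap for Pck1/Pklr and Pcx/Pklr.

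Markers of cell types were counted in the same way, beside 20.1% of all tested genes called lower and 21.5% called higher. Of 39 hepatocyte markers 20 fell and 1 rose, with a median log2 fold change of -0.53 and a summed level of 247043 to 286972 CPM in WT and 154002 to 221788 CPM in Hom livers, and none of them was at 0 in a liver. Under library size alone 9 fell and 4 rose (4.65% and 47.6% of all genes), and without Hom 3 12 fell and 0 rose. Of 12 cholangiocyte markers 9 rose (median 2.72, summed level 177 to 193 CPM in WT and 762 to 997 CPM in Hom livers). Of 16 stellate cell and fibroblast markers 9 rose and 2 fell (median 1.04, 402 to 476 CPM and 813 to 915 CPM). Of 16 macrophage markers 5 rose and 2 fell (median 0.80, 327 to 758 CPM and 676 to 871 CPM), of 13 endothelial markers 1 rose and 7 fell (median -0.54, 364 to 487 CPM and 292 to 298 CPM), and of 9 tested lymphocyte markers 3 rose (median 1.00, 11.7 to 25.0 CPM and 26.8 to 47.3 CPM). The part of these cell types in the fold changes and ratios above was not tested.

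Each gene was also set against the mean log2 CPM of the 39 hepatocyte markers in the same liver, and 3 of the 9 then had groups that did not overlap. G6pc was lower in every Hom liver, by -1.19 in the mean, and Pck1 by -0.53, while Gckr was higher in every Hom liver, by 0.34 (exact two-sided permutation p = 0.1 each, the smallest possible, adjusted p = 0.300 over the 9 genes). The other 6 overlapped between groups, with -0.41 for Pygl, -0.18 for Pklr, -0.15 for Gys2, -0.02 for Slc2a2, 0.12 for Fbp1 and 0.22 for Pcx. With the median of the markers in place of their mean, Gckr was at 0.16, Pcx at 0.038 and Fbp1 at -0.061. Slc2a2 was then at -0.20, Gys2 at -0.34, Pklr at -0.36, Pygl at -0.59, Pck1 at -0.72 and G6pc at -1.37. Against the mean, leaving out Hom 2 moved Pck1 to -0.26, and leaving out Hom 1 moved Slc2a2 to 0.25 and Pklr to 0.28. With each liver left out Pygl ran from -0.54 to -0.18, Gys2 from -0.30 to -0.014 and Fbp1 from 0.015 to 0.18. Of all tested genes 4.04% were lower and 60.3% higher than in every WT liver by this measure. Markers of the pericentral zone fell in 11 of 14 (median -1.27, 14372 to 17447 CPM in WT and 2291 to 4379.5 CPM in Hom livers), and those of the periportal zone, where gluconeogenesis is known to be strongest, in 2 of 14 (median -0.43, 15062 to 18209.6 CPM and 9035 to 14842 CPM). Both counts are of 14 genes beside 20.1% of all genes. The number of periportal markers that were lower was 5 with DESeq2 and 1 or 2 without WT 1, WT 2, WT 3, Hom 2 or Hom 3, but 11 without Hom 1. That of pericentral markers was 8 under library size alone and 9 to 11 with any liver left out. No difference between the zones was tested.

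The rest of the pathway was read from gene lists. Of all tested genes 20.1% were called lower and 21.5% higher under TMM. These shares were 4.65% and 47.6% under library size alone, and 3.34% and 50.2% under hepatocyte markers. The list counts stand beside them. Among 27 other enzymes and carriers of gluconeogenesis 13 fell and 2 rose (median -0.40), but under library size alone 4 fell and 3 rose, and under hepatocyte markers 1 fell and 4 rose. The number that fell was 21 without Hom 1 and 8 without Hom 3. Gpd1, which brings glycerol into the route, fell by 0.90 on the log2 scale (adjusted p = 0.00144), Got2, the mitochondrial aspartate aminotransferase, by 0.80 (adjusted p = 0.00292) and Mdh1, the cytosolic malate dehydrogenase, by 0.75 (adjusted p = 0.00279), all 3 with no call under hepatocyte markers. Pck2 rose by 1.36 (adjusted p = 0.00333) and G6pc3 by 0.47 (adjusted p = 0.0370, and 0.0590 to 0.122 when WT 1, WT 2, WT 3, Hom 2 or Hom 3 was left out). Both are isozymes of genes that fell. Of 12 isozyme partners tested, 7 rose and 0 fell (median 0.57), and 10 rose under library size alone, beside 47.6% of all genes. DESeq2 also gave 7 and 0, and an unadjusted p under 0.05 gave 8 and 0, while 4 rose without Hom 2, without Hom 3, and with the minimum of 1 on the fold change. Among the 7 were the hexokinases Hkdc1 (3.24, adjusted p = 0.00126) and Hk2 (1.99, adjusted p = 0.00332), both at low levels. Mean CPM went from 0.299 in WT to 2.88 in Hom livers for Hkdc1, and from 1.66 to 6.62 for Hk2.

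Among 23 further glycogen genes 8 fell and 3 rose (median -0.037). Under library size alone 4 fell and 8 rose, beside 4.65% and 47.6% of all genes. With each liver left out 6 to 8 fell and 2 to 4 rose. The list holds 5 subunits that bring protein phosphatase 1 to glycogen, which switch glycogen synthase on, and 3 of them fell, beside 20.1% of all genes. Ppp1r3c stood at 96.3, 106 and 75.0 CPM in WT livers and at 11.9, 17.6 and 16.5 CPM in Hom livers, and fell by 2.59 on the log2 scale (SE 0.19, adjusted p = 0.000345). Ppp1r3b, the main such subunit of liver, stood at 347, 506 and 373 CPM in WT livers and at 152, 132 and 94.8 CPM in Hom livers, and fell by 1.69 (SE 0.22, adjusted p = 0.00173). Both kept their call under library size alone (-2.12 and -1.23) and hepatocyte markers (-2.03 and -1.17), and in every fit that left out 1 liver. A further subunit, Ppp1r3g, named after its values were seen, was at 1.17, 3.40 and 2.15 CPM in WT livers and at 0, 0.247 and 0.345 CPM in Hom livers (adjusted p = 0.0128, and 0.0513 without WT 2 or 0.0514 without Hom 2). The other two, likewise named afterwards, were Ppp1r3d (0.96, adjusted p = 0.274) and Ppp1r3e (0.23, adjusted p = 0.472), and neither passed the test. Ugp2, which makes the UDP-glucose that glycogen synthase uses, fell by 0.83 (adjusted p = 0.000758), with no call under hepatocyte markers. Pygb, Pgm2, a phosphoglucomutase (1.00, adjusted p = 0.00236), and Gyg, glycogenin, which primes new glycogen (0.66, adjusted p = 0.0187), rose. The call of Gyg was lost without WT 2, Hom 2 or Hom 3 (adjusted p = 0.0532 to 0.0671).

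Of 17 genes of glucose and fructose sensing 7 fell and 0 rose (median -0.35), while DESeq2 gave 9 and 0 and an unadjusted p under 0.05 gave 9 and 1. Library size alone gave 2 and 3, beside 4.65% and 47.6% of all genes. Without Hom 2, and likewise without Hom 3, 4 fell. Mlxipl, which encodes ChREBP, stood at 487, 445 and 431 CPM in WT livers and at 175, 227 and 255 CPM in Hom livers. Khk, ketohexokinase, the first enzyme of fructose use, stood at 398, 318 and 309 CPM in WT livers and at 137, 159 and 166 CPM in Hom livers. Groups were apart for both, with a fall of 1.05 for Mlxipl (SE 0.16, adjusted p = 0.00274) and 1.15 for Khk (SE 0.14, adjusted p = 0.00132). Khk kept its call under hepatocyte markers and Mlxipl did not (-0.50, adjusted p = 0.0774). Txnip, a ChREBP target named after its values were seen, fell by 0.91 (adjusted p = 0.00903). It had no call under library size alone (-0.44, adjusted p = 0.109) or hepatocyte markers (-0.35, adjusted p = 0.221). Among 7 enzymes opposed to gluconeogenesis 3 fell and 2 rose, with Pfkfb1, the liver form of the enzyme that sets fructose-2,6-bisphosphate, at -1.09 (adjusted p = 0.00820, and 0.111 under hepatocyte markers) and Pfkfb4 at 1.51 (adjusted p = 0.00282). The number of these that rose was 1 without WT 2, WT 3, Hom 1 or Hom 3.

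Of 38 genes of hormone and transcriptional control 16 fell and 3 rose (median -0.40). Under library size alone 5 fell and 10 rose, beside 4.65% and 47.6% of all genes. Without WT 2, 1 rose. The nuclear receptors Nr0b2 (SHP) and Nr1i3 (CAR) fell by 1.35 (adjusted p = 0.00101) and 1.02 (adjusted p = 0.000373), also under hepatocyte markers. Sik1, a kinase induced by cAMP that restrains the gluconeogenic coactivator CRTC2, stood at 25.1, 18.2 and 17.4 CPM in WT livers and at 223, 91.8 and 141 CPM in Hom livers. Sik1 rose by 2.91 (SE 0.34, adjusted p = 0.00124), and by 2.99 to 3.40 under the other scalings. Named after their values were seen, Foxo1 (-0.86, adjusted p = 0.00983) and Ppargc1a (-0.87, adjusted p = 0.0347), a transcription factor and a coactivator of Pck1 and G6pc, fell, with no call under library size alone or hepatocyte markers. The call of Ppargc1a was also lost without WT 1, WT 2, Hom 2 or Hom 3 (adjusted p = 0.0871 to 0.105). Crtc2 did not pass the test, with a log2 fold change of -0.16 (adjusted p = 0.171) that turned to 0.30 under library size alone.

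**Figure D4:**
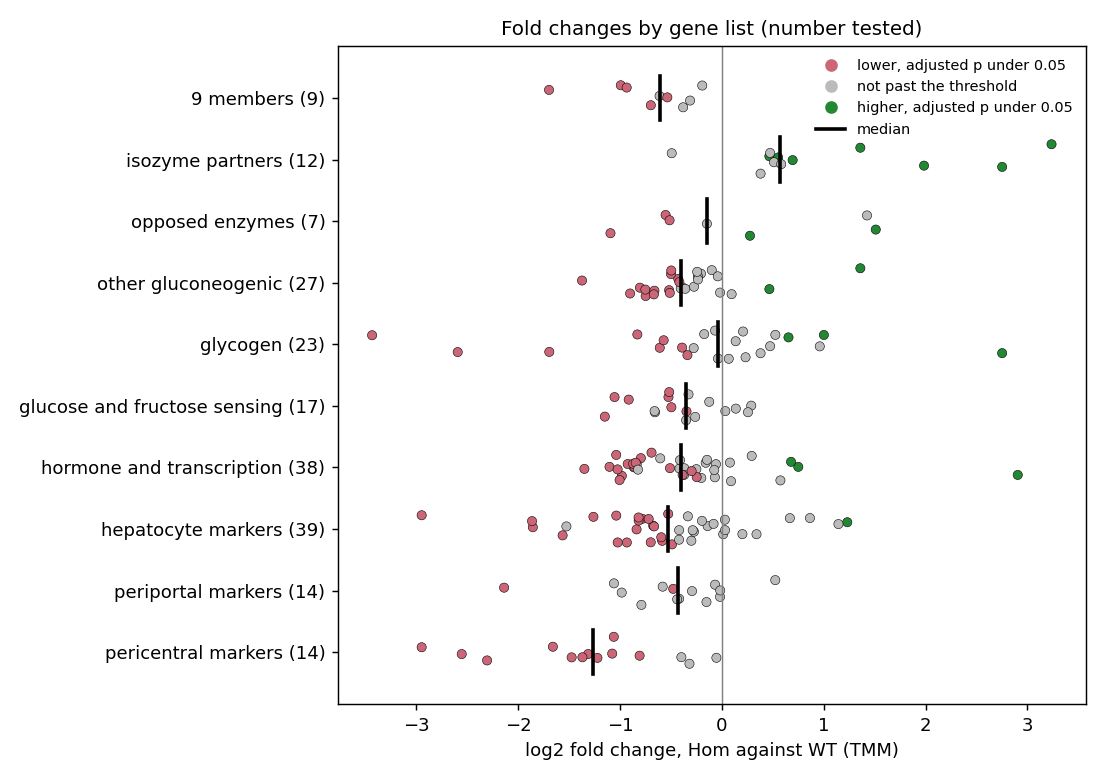
Log2 fold change of Hom against WT under TMM scaling (x axis) for each tested gene of 10 lists (rows, with the number tested); colours mark genes past an adjusted p of 0.05 and black bars the median of the list. The 9 genes lie at or left of -0.19, the isozyme partners lie mostly right of 0, and the glycogen list reaches from -3.43 to 2.75.

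Across the 6 livers the genes outside the set whose log2 CPM ran most like the mean of the 9 were Micos10, Sdc4 and Klf12, with Pearson correlations of 0.998, 0.998 and 0.998, out of 8261 genes with a mean of at least 10 CPM. All 3 fell in the Hom mice, by 0.55, 1.23 and 1.19 on the log2 scale (adjusted p = 0.00224, 0.000806 and 0.00108), so the 6 livers form 2 clusters on both sides of each correlation, which is given as a description.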

How the data were processed

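Total RNA of 6 livers (3 WT, 3 Hom) was sequenced on DNBSEQ. The submitters' processing notes name HISAT2 2.0.4, Bowtie2 2.2.5, RSEM 1.2.12 and the build mm9, and the annotation and strandedness are not given in the sources used here. The authors deposited estimated counts (expected counts, unscaled), TPM and FPKM per liver for 17975 genes. The deposited group means carry crossed names and were not used.

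Estimated counts were rounded, filtered with filterByExpr (13805 genes kept), scaled by TMM and tested with edgeR 4.0.16 (glmQLFit, glmQLFTest, R 4.3.3) with Benjamini-Hochberg adjustment over all tested genes at 0.05. The procedure was also run on simulated counts in which few genes changed, evenly in both directions. That run could not test the choice of scaling, since these livers differ in far more genes. TPM entered ratios within a liver, and the deposited FPKM values entered an alternative of these ratios. Levels on a log scale used log2(CPM + 0.5). Alternatives were DESeq2 1.42.0, other scalings and filters, a length correction, a fold minimum, the replicate block and each liver left out. Intervals cover the spread between 3 livers per group.

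The 9 genes and all lists were chosen with earlier results of these data known. Named genes were the 9, those of the ratios, Nek7, up to 3 per list and direction with the smallest adjusted p and at least 1 CPM, and the 3 most alike in profile. A small number of genes and ratios are not reported here.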

Additional observations from a re-analysis of the deposited data

How the results depend on the processing

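The number of the 9 glucose genes that were lower, 5 with TMM, was 1 under library size alone, 1 under hepatocyte marker scaling and 1 with a minimum of 1 on the size of the log2 fold change, and 3 to 6 with each liver left out, with 3 without WT 2, WT 3 or Hom 3. Their median log2 fold change, -0.61, was -0.12 under library size alone and -0.031 under hepatocyte marker scaling, and -0.72 to -0.54 with each liver left out. No setting made any of the 9 a call in the higher direction. The sign turned under library size alone for Fbp1 (0.062), Pcx (0.15), Gckr (0.27), Creb1 (0.39) and Crtc2 (0.30). Under hepatocyte marker scaling it turned for Fbp1 (0.13), Pcx (0.22), Gckr (0.34), Slc2a2 (0.018), Usf2 (0.027), Pfkfb3 (0.049), Creb1 (0.48) and Crtc2 (0.38). Creb1 also turned under upper-quartile factors (0.034). With each liver left out Creb1 ran from -0.14 to 0.010, above 0 without WT 1. The 8 ratios within a liver whose groups did not overlap kept their direction in every alternative run, and Pck1 over Pklr ran from -0.97 to 0.30 with each liver left out. Relative to the hepatocyte markers, with each liver left out, Pklr ran from -0.57 to 0.28 and Slc2a2 from -0.17 to 0.25, and with the median of the markers Fbp1 was at -0.061. Ratios in FPKM leave the difference between groups as it is by construction, which does not hold for ratios in CPM. Which scaling is closer to the RNA content of the livers was not tested.

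WT and Hom livers share replicate numbers but are different mice, and livers of the same number did not deviate together (correlations of -0.079, -0.039 and -0.018). With the replicate block 5 of the 9 genes were lower and the median was -0.69, and among the genes named G6pc3, Slc2a1, Pfkl, Gyg, Pde4d and Pfkfb3 lost their call.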
